A study of Mus musculus with 192 samples.

Results

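The transforming growth factor beta (TGF-beta) genes Tgfb1, Tgfb3, Tgfbr1 and Eng were read in single cells that had entered skin wounds from the blood of a joined mouse. The 4 genes were taken by name from a panel of 96 TaqMan assays for 95 genes, and each is measured by 1 assay: Mm01178820_m1 for Tgfb1, Mm00436960_m1 for Tgfb3, Mm00436964_m1 for Tgfbr1 and Mm00468256_m1 for Eng. Recipient mice were wild type (WT) or lacked the chemokine Cxcl12 in their endothelium (EKO), and every recipient shared its circulation with a donor positive for green fluorescent protein (GFP). The sort took GFP-positive cells without lineage antigens from wounds on the back, so both groups hold donor-labelled cells and the genotype is that of the host. The sources used here do not give the driver of the endothelial deletion, the lineage antigens, the age and number of the mice or the day of harvest.

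TGF-beta ligands are secreted in a latent form and, once released, bring together a type II and a type I receptor kinase on the target cell. The type I receptor, encoded by Tgfbr1, then phosphorylates Smad proteins, which enter the nucleus and regulate genes of matrix, contraction and growth. Endoglin, encoded by Eng, is a co-receptor best known from endothelial cells and also used as a marker of mesenchymal stromal cells. In wounds the ligands come from platelets, macrophages and fibroblasts, among others, and the pathway is known for driving matrix deposition.

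The 4 genes differ in how widely they were detected, with Tgfb1 the broadest. The promoter windows of Tgfb1 and Eng are shown to set the broadly detected ligand beside the restricted co-receptor. Both come from RefSeq on GRCm38.p6 and are 300 bases long and span the annotated start. RefSeq places them on the forward strand, at chr7:25686752-25687051 for Tgfb1 and chr2:32646345-32646644 for Eng. Capitals mark the GC box in Tgfb1, searched as GGGCGG or CCGCCC, and the core of sites for ETS factors in Eng, searched as AGGAA or TTCCT.
Tgfb1: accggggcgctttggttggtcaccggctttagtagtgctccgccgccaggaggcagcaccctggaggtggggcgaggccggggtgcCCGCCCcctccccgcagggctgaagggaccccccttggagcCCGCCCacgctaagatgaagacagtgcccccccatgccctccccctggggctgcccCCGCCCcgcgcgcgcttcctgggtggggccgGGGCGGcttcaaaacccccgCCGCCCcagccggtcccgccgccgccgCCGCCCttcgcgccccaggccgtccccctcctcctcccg
Eng: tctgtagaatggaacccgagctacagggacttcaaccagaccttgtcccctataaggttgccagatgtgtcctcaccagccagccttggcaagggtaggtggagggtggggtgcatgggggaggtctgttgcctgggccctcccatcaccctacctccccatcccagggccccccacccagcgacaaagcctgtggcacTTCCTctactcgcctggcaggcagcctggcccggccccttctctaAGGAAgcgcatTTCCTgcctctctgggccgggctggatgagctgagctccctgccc
The Tgfb1 window held 6 GC boxes and was 77% G or C, whereas the Eng window held 0 GC boxes and was 63.3% G or C. The GC box occurs in 35.7% of the 32851 promoter windows of this length. The Eng window held 3 ETS cores and the Tgfb1 window 1, and 66.7% of all windows hold at least 1. The Smad-type element CAGAC, or GTCTG on the other strand, occurred 2 times in the Eng window and 0 times in that of Tgfb1, against 49.6% of all windows with a match. The Tgfbr1 window at chr4:47352972-47353271 held 2 GC boxes at 74.7% G or C, and a second Tgfbr1 window at chr4:47385966-47386265 held 0 GC boxes and 3 ETS cores at 52% G or C. These matches describe the letters of the windows and were not related to any measured binding.

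The data set holds 96 cells per genotype, split evenly over 2 sets, A and B. Cell numbers 1 to 48 are WT and 49 to 96 EKO in each set, so that genotype and position cannot be told apart. The deposited value is read as a cycle threshold (Ct), the PCR cycle at which a reaction crosses its fluorescence limit. A lower Ct is a higher level, 1 cycle is about one doubling, and a value of 40 was read as not detected. Cells detected 4 to 70 assays each, and the 170 that detected at least 10 were kept, 93 WT and 77 EKO. No animal is named, so each genotype counts as 1 sample, no test between genotypes or classes was possible, and the 95% intervals are exact (Clopper-Pearson) and cover counting error only. Ct values of different assays were not set against each other.

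Tgfb1 was detected in 122 of the 170 kept cells, Tgfbr1 in 76, Eng in 52 and Tgfb3 in 43. No member had a Ct of 30 or later, and only Eng, in 3 cells, had one of 25 or later. The latest Ct was 22.3 for Tgfb1, 22.965 for Tgfb3, 24.8 for Tgfbr1 and 26.1 for Eng. The value of 40 marks reactions read as not detected, and how late a Ct each assay can reach was not tested. In the 22 cells left out, 19 of them EKO, all 4 genes were at 0 of 22, which allows a share of up to 13.6%, taking 3 counts as the limit that a count of 0 allows.

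Detection of all 4 genes was higher where more of the other assays were detected, which bears on every share below. Among all sorted cells, kept or not, those with 10 to 23 other assays detected Tgfb1 in 32 of 77 (41.6%), Tgfbr1 in 9 of 76 (11.8%), Eng in 2 of 75 (2.67%) and Tgfb3 in 1 of 75 (1.33%). At 24 to 47 other assays the shares were 94.4% for Tgfb1, 58.2% for Tgfbr1, 33.3% for Eng and 25.9% for Tgfb3. At 48 or more they were 100% (39 of 39), 89.7% (35 of 39), 78.05% (32 of 41) and 68.3% (28 of 41). Tgfb1 thus neared full detection in cells of middle yield, while Tgfb3 and Eng were detected mainly in cells of the highest yield, most of which were collagen-high cells. How far yield or cell type sets these shares was not tested.

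**Figure D1:**
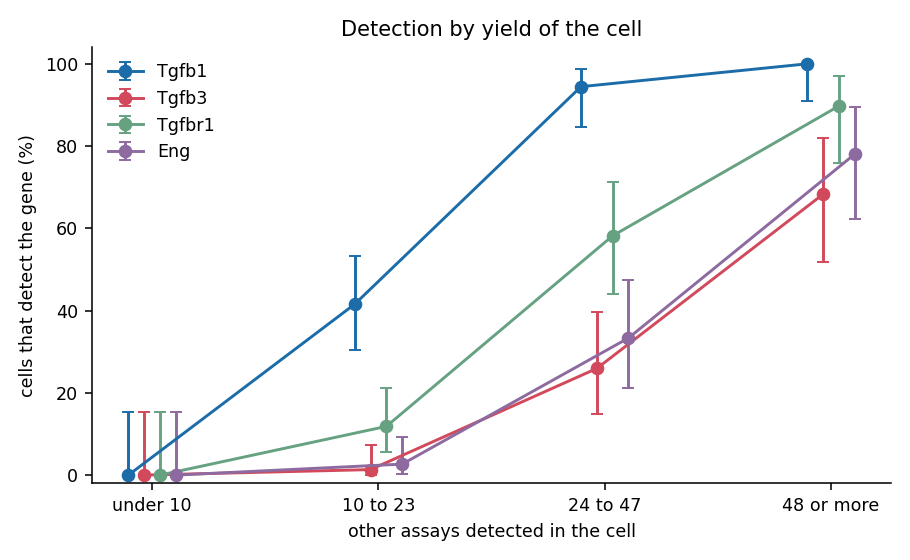
Share of cells that detected Tgfb1, Tgfb3, Tgfbr1 and Eng (percent of cells, vertical axis) in 4 bins of the number of other assays detected in the same cell (horizontal axis), with exact 95% intervals. Tgfb1 stands at 94.4% in the bin of 24 to 47 assays, where Tgfb3 stands at 25.9%.

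Cells were set in classes by 3 genes: collagen-high cells had Col1a1, a chain of type I collagen, below Ct 16; Ptprc encodes the leukocyte antigen CD45; and Cdh5 encodes the endothelial cadherin. The 46 collagen-high cells were clear of the limit, with the latest Col1a1 Ct inside at 14.3 and the earliest outside at 17.04. All 46 also detected Col1a2, Col3a1 and the fibroblast receptor gene Pdgfra, and of the 6 endothelial markers on the panel they detected a median of 1, with 18 cells at 2 or more. Pecam1 was found in 43.5% of them, Tek in 32.6%, Kdr in 28.3%, Cdh5 in 4.35% and Tie1 in 0%. Of the other mesenchymal markers Thy1 was found in 97.8% and Pdgfrb and Acta2 in 41.3% each. Collagen-high cells also detected a median of 3 of the 5 haematopoietic progenitor markers and 2 of the 5 leukocyte or myeloid markers. Runx1 and Ly6a were found in 97.8% each, Cd34 in 89.1%, Kit in 8.7% and Gata2 in 4.35%. Cd48 was found in 47.8%, Ccr2 in 43.5%, Itgam in 2.17% and Adgre1 in 0%. Ptprc was detected in 102 cells, of which 31 were collagen-high, leaving 71 Ptprc-detecting cells without high collagen. In these Pdgfra was detected in 2.82% but Col3a1 in 49.3%, Col1a1, at a Ct later than 16, in 43.7%, Thy1 in 38.03% and Col1a2 in 36.6%. The 71 detected a median of 2 of the 5 leukocyte or myeloid markers, of which Ptprc is 1. Cd48 was found in 59.2%, Ccr2 in 29.6%, Adgre1 in 18.3% and Itgam in 14.1%. Of the haematopoietic progenitor markers Ly6a was found in 81.7%, Runx1 in 46.5%, Kit in 29.6%, Cd34 in 12.7% and Gata2 in 2.82%. Cdh5 was detected in 13 cells, 9 of them EKO cells of set A. The 13 detected a median of 6 of the 6 endothelial markers on the panel, of which Cdh5 is 1. At least 2 were found in 10 of these cells, with Pecam1 in 69.2% and Kdr, Flt1, Tek and Tie1 in 61.5% each. They also detected a median of 3 of the 7 mesenchymal markers. Col3a1 was found in 69.2%, Thy1 in 61.5%, Col1a2 in 53.8%, Col1a1 in 46.2%, Acta2 in 23.1%, Pdgfra in 15.4% and Pdgfrb in 7.69%. Of the 13, 8 also detected Ptprc and 2 were collagen-high, and 76.9% detected Kit, a receptor of blood progenitors. Among the 71 Ptprc-detecting cells without high collagen, 6 also detected Cdh5, all of them EKO cells of set A. Those 6 count in both classes below. The other 48 cells fell in no class, and their median yield was 15 assays against 52 in collagen-high, 28 in Ptprc-detecting cells without high collagen and 52 in Cdh5-detecting cells.

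Tgfb1, the ligand made by many immune and stromal cells, was common to every class. It was detected in 43 of 46 collagen-high cells (93.5%, 82.1 to 98.6), in 57 of 71 Ptprc-detecting cells without high collagen (80.3%, 69.1 to 88.8) and in 12 of 13 Cdh5-detecting cells (92.3%, 63.97 to 99.8). In the cells of no class it was detected in 18 of 48 (37.5%, 23.95 to 52.6). Its Ct ran from 14.8 to 22.035 with a median of 17.5 in collagen-high cells. In Ptprc-detecting cells without high collagen it ran from 12.1 to 21.8 with a median of 17.97, and in Cdh5-detecting cells from 12.1 to 18.7 with a median of 16.6. The cell at 12.1 is 1 cell that counts in both classes. These ranges overlapped widely, so no class stood apart by the level of Tgfb1. After subtraction of each cell's own median Ct the medians were 0.32 cycles in collagen-high cells, -0.98 in Ptprc-detecting cells without high collagen and -1.14 in Cdh5-detecting cells.

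Tgfb3, a ligand studied in palate development and scarring, was detected mainly in the collagen-high cells. They held 35 of the 43 cells with Tgfb3 (81.4%, 66.6 to 91.6), although they are 46 of the 170 kept cells. Within the class 76.1% detected it (61.2 to 87.4), with a Ct of 14.3 to 22.965 and a median of 20.9. Of the 71 Ptprc-detecting cells without high collagen, 8 detected it (11.3%, 4.99 to 21), with a Ct of 19.3 to 22.7 and a median of 21.3. Their Ct values lay inside the range of the collagen-high cells, so the classes differed in how often Tgfb3 was detected and not visibly in its level where detected. In the 13 Cdh5-detecting cells it was detected in 4, at a Ct of 14.3 and 20.6 in the WT cells and 21.4 and 22.7 in the EKO cells. In the 48 cells of no class it was detected in 0, which by the same limit of 3 counts allows a share of up to 6.25%.

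**Figure D2:**
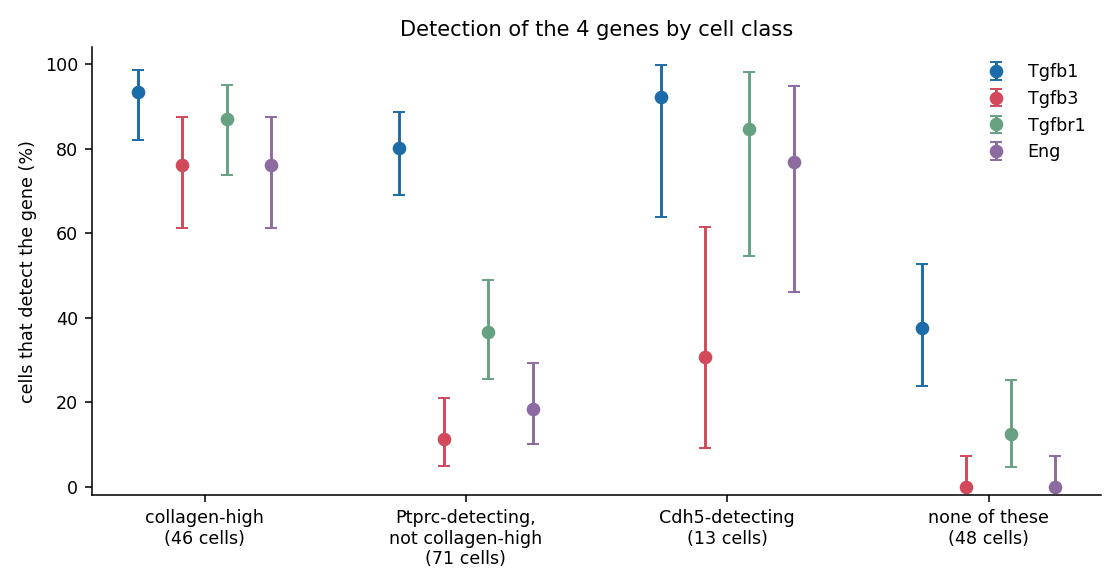
Share of kept cells that detected each gene (percent, vertical axis) in collagen-high cells, Ptprc-detecting cells without high collagen, Cdh5-detecting cells and cells of none of these classes, with exact 95% intervals. Tgfb3 stands at 76.1% in collagen-high cells and 11.3% in Ptprc-detecting cells without high collagen, and Tgfb1 at 93.5% and 80.3%.

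Tgfbr1, the type I receptor, was detected in 40 of 46 collagen-high cells (86.96%, 73.7 to 95.1) and in 11 of 13 Cdh5-detecting cells (84.6%). In Ptprc-detecting cells without high collagen it was detected in 26 of 71 (36.6%, 25.5 to 48.9), and in cells of no class in 6 of 48 (12.5%, 4.73 to 25.2). Its median Ct was 20.4 in collagen-high cells, with a range of 16.9 to 22.9. In Ptprc-detecting cells without high collagen it was 22.1, with a range of 15.8 to 24.8, and the cell at 15.8 also detected Cdh5. The ranges overlapped, and the difference of -1.70 cycles became 0.08 once each cell's median Ct was subtracted.

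Eng, the co-receptor, was detected at like shares in collagen-high cells (35 of 46, 76.1%) and Cdh5-detecting cells (10 of 13, 76.9%, 46.2 to 94.96), and in 13 of 71 Ptprc-detecting cells without high collagen (18.3%, 10.1 to 29.3). The 52 cells with Eng divide into 34 collagen-high cells without Cdh5 (65.4%), 10 Cdh5-detecting cells (19.2%) and 8 cells with Ptprc alone (15.4%), and Eng was at 0 of 48 in the cells of no class. Its Ct had an order in these groups. In Cdh5-detecting cells it ran from 15.996 to 22.7 with a median of 18.3, in collagen-high cells without Cdh5 from 16.9 to 26.1 with a median of 20.7, and in cells with Ptprc alone from 22.6 to 23.98 with a median of 23.1. The first 2 groups overlapped over most of their ranges. Cells with Ptprc alone lay at or past the late end of the Cdh5-detecting cells. They were inside the range of the collagen-high cells, some of which were later. The groups also differed in genotype. Among WT cells alone the medians were 22.7 in collagen-high cells without Cdh5 and 23.4 in the 6 cells with Ptprc and without high collagen. The part of genotype in the order was not tested. After subtraction of each cell's median Ct the order was kept, at 0.41, 3.45 and 4.05 cycles, with the latter 2 close together.

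The share of cells with a gene was then set between collagen-high cells and Ptprc-detecting cells without high collagen. The difference was 64.8 points for Tgfb3 (47.1 to 77.8), 57.8 for Eng (39.3 to 71.8), 50.3 for Tgfbr1 (32.3 to 64.1) and 13.2 for Tgfb1 (-1.002 to 25.5). A gene was called if it differed by 20 points or more over both sets together and in the same direction in each, and 3 of the 4 genes, Tgfb3, Tgfbr1 and Eng, were called as higher in collagen-high cells. So were 45 of all 94 assays outside the defining genes (47.9%), while 2 were lower (2.13%), with a median difference of 15.4 points, so that a share this much higher was common on the panel. Among cells with at least 24 assays, where the median yields were 52 and 34.5 assays, the differences were 59.4 points for Tgfb3, 49.9 for Eng, 36.96 for Tgfbr1 and -6.52 for Tgfb1. The same 3 genes were called there, as did 37 of the 94 assays (39.4%), while 7 were lower (7.45%), with a median of 6.73 points. Tgfbr1 differed between the sets, at 17.4 (A) and 59.7 (B) points in those cells. At 24 to 47 assays, with 9 and 38 cells, the shares were 55.6% and 15.8% for Tgfb3, 77.8% and 44.7% for Tgfbr1, and 77.8% and 18.4% for Eng. At 48 or more, 37 collagen-high cells stood against 4, all EKO cells of set A that also detected Cdh5. The shares there were 81.1% against 25% for Tgfb3, 89.2% against 100% for Tgfbr1 and 75.7% against 100% for Eng. Yield still differed between the classes, and its part in these differences was not tested.

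Co-detection followed the breadth of each gene. Of the 43 cells with Tgfb3, 42 also detected Tgfb1 (97.7%), which is 34.4% of the cells with Tgfb1. Tgfb1 and Tgfbr1 were found together in 69 cells, 90.8% of those with Tgfbr1 and 56.6% of those with Tgfb1. Tgfb3 and Tgfbr1 met in 35 cells, 81.4% of those with Tgfb3 and 46.1% of those with Tgfbr1. Cells with the rarer genes were therefore nearly always cells with Tgfb1, the gene detected in most cells.

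Eng was found with Tgfb1 in 48 cells (92.3% of the cells with Eng), with Tgfbr1 in 40 (76.9%) and with Tgfb3 in 29 (55.8%). All 4 genes were detected in 24 cells (14.1%, 9.26 to 20.3), and 23 of these were collagen-high, which is 50% of that class (34.9 to 65.1). A ligand together with the receptor was detected in 39 of 46 collagen-high cells (84.8%), 11 of 13 Cdh5-detecting cells (84.6%), 22 of 71 Ptprc-detecting cells without high collagen (30.99%) and 5 of 48 cells of no class (10.4%). Co-detection in 1 cell says nothing of whether the ligand was secreted or the receptor engaged. Tgfb1 without the other 3 genes was the commonest pattern among cells with any of them, at 38 cells, and 40 cells detected none. The association was weaker within a class: the phi coefficient of the 6 pairs ran from 0.30 to 0.47 over all kept cells, from -0.22 to 0.26 in collagen-high cells and from 0.01 to 0.18 in Ptprc-detecting cells without high collagen.

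**Figure D3:**
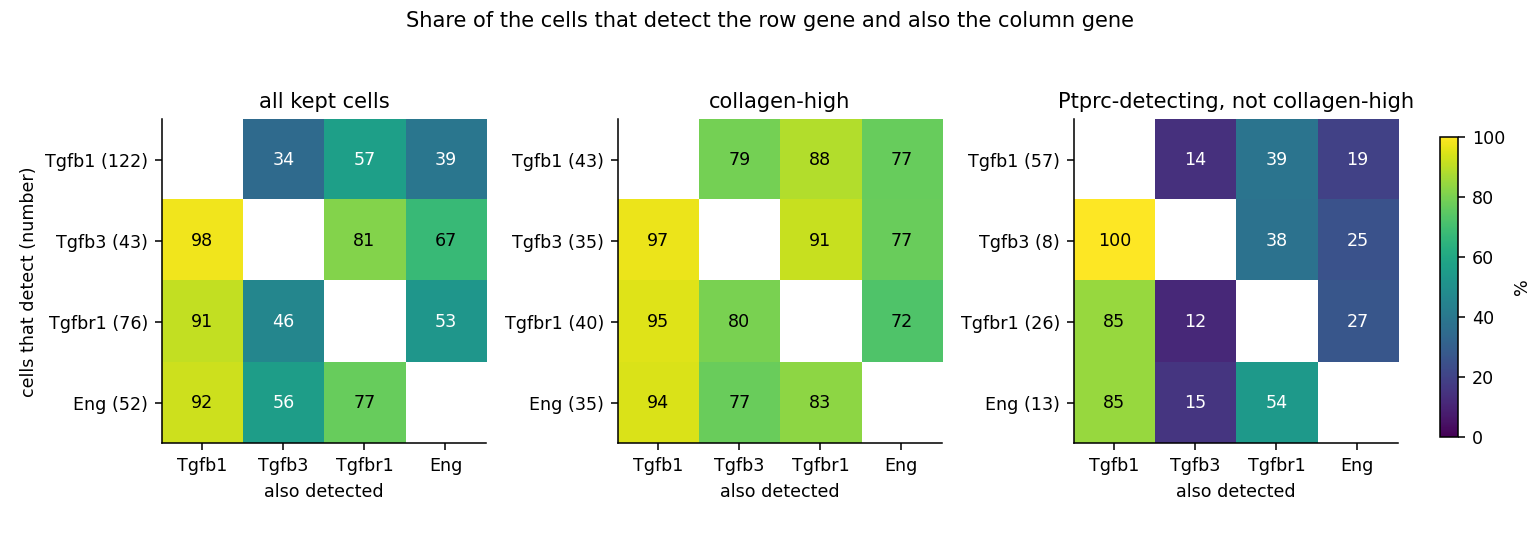
Co-detection of the 4 genes in kept cells, given as the share of cells with 1 gene that also detected another (percent). Tgfb1 was found in 97.7% of cells with Tgfb3, whereas Tgfb3 was found in 34.4% of cells with Tgfb1.

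Recipient genotype was compared next, the question being whether donor cells in wounds without endothelial Cxcl12 differ in TGF-beta genes. Among kept cells all 4 shares were slightly higher in EKO, and the interval of each difference included 0. The share with Tgfb1 was 68.8% in WT and 75.3% in EKO, a difference of 6.51 points (-7.95 to 20.4). Tgfbr1 was detected in 40.9% and 49.4%, a difference of 8.49 points (-7.28 to 23.9), and Eng in 27.96% and 33.8%, a difference of 5.81 points (-8.80 to 20.4). Tgfb3 was detected in 22.6% and 28.6%, a difference of 5.99 points (-7.84 to 19.96). A gene was called if its share differed by 10 points or more overall and in 1 direction in the sets, and 0 of the 4 genes were called, against 20 of the 96 assays (20.8%), all of them higher in EKO. The median difference over all assays was 5.70 points, so the 4 genes stood near the middle of the panel.

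Kept EKO cells had a median yield of 34 assays and WT cells 21. In cells with at least 24 assays, 42 WT and 53 EKO with median yields of 46.5 and 45, the differences were all below 0: -1.39 points for Tgfb1, -8.09 for Eng, -8.27 for Tgfbr1 and -10.4 for Tgfb3. There 0 of the 4 genes met the rule, against 15 of 96 assays (15.6%), 4 higher (4.17%) and 11 lower (11.5%) in EKO. With no cell left out, which adds back 19 EKO and 3 WT cells without any of the 4 genes, they were -6.25 points for Tgfb1, 1.04 for Tgfb3 and 0 for Tgfbr1 and Eng. The direction of the small differences between genotypes thus depended on which cells were counted.

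Tgfb3 went opposite ways in the sets. In set A it was detected in 16 of 48 WT cells (33.3%) and 9 of 39 EKO cells (23.1%), and in set B in 5 of 45 WT cells (11.1%) and 13 of 38 EKO cells (34.2%). EKO minus WT was thus -10.3 points in the former set (-29.5 to 10.5) and 23.1 in the latter (3.61 to 41.8). In cells with at least 24 assays it was -34.7 points in the former (-59.2 to -3.91) and 18.7 in the latter (-13.3 to 45.4), so the set whose interval left out 0 changed with the filter. The collagen-high cells went the same ways, at 33.3% of WT and 17.9% of EKO cells in set A and 20% and 36.8% in set B. Among the collagen-high cells of set A, 15 of 16 WT and 6 of 7 EKO cells had Tgfb3, and among those of set B 5 of 9 WT and 9 of 14 EKO cells. The part of the collagen-high share in the difference was not tested. The 5 WT cells of set B with Tgfb3 were all collagen-high, at a Ct of 19.2, 19.6, 20.6, 21.2 and 22.7.

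**Figure D4:**
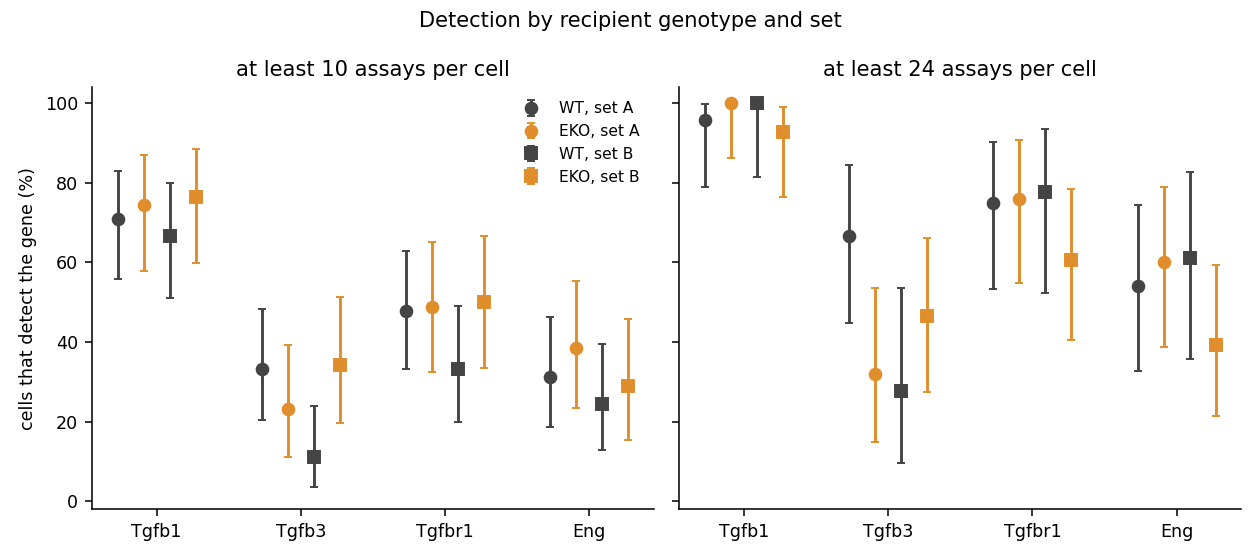
Share of kept cells that detected each gene (percent, vertical axis) in WT and EKO recipients within set A and set B, with exact 95% intervals. Tgfb3 stands at 33.3% in WT and 23.1% in EKO cells of set A, and at 11.1% and 34.2% in set B.

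Of the 4 genes, Eng had the largest difference in level between genotypes among detecting cells. It was detected in 26 cells of each genotype, with a Ct of 16.7 to 26.1 and a median of 22.9 in WT cells and of 15.996 to 22.9 with a median of 19.7 in EKO cells. The difference of the medians, EKO minus WT, was -3.12 cycles, larger in size than the SD over cells of 2.10 in WT and 1.92 in EKO. In set A the WT values ran from 20.5 to 26.1 and the EKO values from 15.996 to 22.9. In set B they ran from 16.7 to 24.8 and from 16.9 to 22.6. The groups overlapped in both sets, and the earliest WT cell of set B was as early as the EKO cells.

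Within the sets the Eng medians differed by -3.80 (A) and -2.62 (B) cycles. The difference was -3.02 without the Cdh5-detecting cells, of which 3 were WT and 10 EKO, and -2.52 in collagen-high cells alone, with -3.20 (A) and -1.63 (B) in the sets. In cells with at least 24 assays it was -2.95. After subtraction of each cell's median Ct it was -1.82, which is smaller, and reference genes also had lower Ct values in EKO cells, with differences of -1.90 cycles for Actb and -1.31 for B2m among kept cells. In collagen-high cells the Actb difference was -0.84 and that of B2m 1.02. Without the Cdh5-detecting cells and with the cell median subtracted the Eng difference was -1.50. The parts of RNA yield per cell and of the mix of cells in the difference were not tested.

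Tgfb1 had a Ct of 15.6 to 22.3 with a median of 18.8 in WT cells, and of 12.1 to 21.7 with a median of 17.2 in EKO cells. The difference of -1.57 cycles, with -0.58 (A) and -1.94 (B) in the sets, was within the SD over cells of 1.85 in WT and 1.90 in EKO. Tgfbr1 ran from 18.6 to 23.6 with a median of 21.004 in WT cells and from 15.8 to 24.8 with a median of 20.6 in EKO cells, a difference of -0.45, with -0.92 (A) and -0.99 (B). For both genes the values of the genotypes overlapped over most of their range. Tgfb3 ran from 14.3 to 22.965 with a median of 21.2 in WT cells and from 16.8 to 22.8 with a median of 20.9 in EKO cells, and the difference of -0.30 cycles had opposite signs in the sets, at 0.46 and -0.33.

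A level was called if the medians differed by 1 cycle or more overall and in 1 direction in the sets, among assays with 10 or more detecting cells in every group. Tgfb1 and Eng were called, both earlier in EKO, of the 3 genes with enough cells, and Tgfb3 was not rated. Tgfb1 fell short of 1 cycle in cells with at least 24 assays (-0.90) and after subtraction of the mean of Actb and B2m (-0.93). Without the Cdh5-detecting cells the Tgfb1 difference was -1.32, with -0.11 (A) and -2.26 (B) in the sets. In collagen-high cells alone it was -1.12, with -0.13 (A) and -2.20 (B), so set A held little of it in either group of cells. Of the 47 assays rated, 22 were called (46.8%), 18 of them earlier (38.3%) and 4 later (8.51%) in EKO, and the median difference of all 47 was -0.84 cycles. Earlier Ct values in EKO cells were therefore common on the panel, among these genes as among the others.

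**Figure D5:**
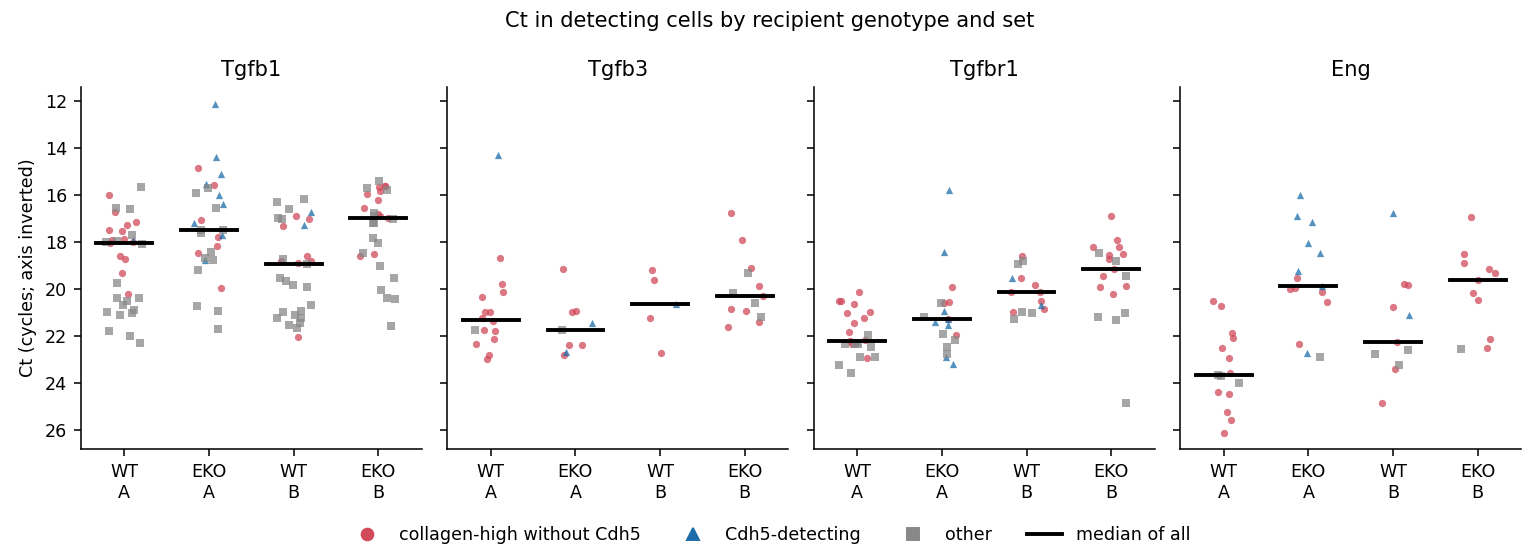
Ct of each gene in every detecting cell (vertical axis in cycles, inverted so that higher levels are up) for WT and EKO cells of set A and set B. Circles are collagen-high cells without Cdh5, triangles Cdh5-detecting cells, squares other cells and black bars medians, and the difference of the Eng medians, EKO minus WT, is -3.80 (A) and -2.62 (B) cycles.

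The assays with the detection pattern most like each gene were found over the 95 cells with at least 24 assays, by phi coefficient among assays detected in 10 to 90% of them. These cells share the chip, its yield and the classes, so the values are descriptions. For Tgfb3 they were Pdgfra (0.57), the growth factor gene Igf1 (0.51) and Timp1, an inhibitor of matrix proteases (0.49). For Tgfbr1 they were Timp1 (0.41), the fibronectin receptor chain gene Itga5 (0.41) and the transcription factor gene Klf4 (0.39). For Eng they were Cd34, a surface marker of vascular and stromal progenitors (0.51), Timp1 (0.50) and Ackr3, a scavenging receptor for Cxcl12 (0.49). Tgfb1 was detected in 96.8% of these cells and has no pattern to rank.

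Outside the collagen-high class, in 49 of these cells, the coefficient of Tgfb3 with Pdgfra was -0.10, with Igf1 0.38 and with Timp1 0.15. Eng kept most of its values there, at 0.45 with Cd34, 0.43 with Ackr3 and 0.40 with Timp1. Some of the 49 were Cdh5-detecting cells. Among kept cells that class detected Cd34 in 69.2%, against 12.7% in Ptprc-detecting cells without high collagen. The part of the Cdh5-detecting cells in these coefficients was not tested. Among themselves the 3 genes were less alike: over all 95 cells the coefficient was 0.29 for Eng with Tgfb3, 0.23 for Tgfb3 with Tgfbr1 and 0.10 for Tgfbr1 with Eng, and in the 49 cells it was -0.02, -0.12 and 0.04.

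Levels were compared in the same way, by Spearman's rho of Ct minus the cell's median over cells that detected both genes. Highest for Tgfb1 were Ptprc (0.57, 88 cells), the survival gene Birc5 (0.52, 29 cells) and the replication clamp gene Pcna (0.51, 117 cells). For Eng they were the receptor genes Igf1r (0.63, 35 cells) and Notch1 (0.50, 23 cells) and the endothelial adhesion gene Pecam1 (0.52, 27 cells). For Tgfb3 they were Bcl2, an inhibitor of cell death (0.55, 21 cells), the ribosomal RNA Rn18s (0.53, 43 cells) and the leukocyte gene Cd48 (0.48, 26 cells). For Tgfbr1 they were Notch1 (0.43, 39 cells), Rn18s (0.42, 76 cells) and Notch2 (0.40, 62 cells). All of these rest on modest numbers of cells that share the 2 sets.

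A list of 35 other genes of the TGF-beta superfamily and its targets was fixed, of which 8 are on the panel: the BMP antagonist gene Nog, the matrix gene Ccn2, the collagen genes Col1a1, Col1a2 and Col3a1, the smooth muscle actin gene Acta2, Timp1 and Myc. The other 27, among them Tgfbr2 and the Smad genes, were not analysed here. By the genotype rule 2 of the 8 were higher in EKO, Timp1 by 17.3 and Myc by 16.2 points, and 0 were lower, beside 20 of all 96 assays (20.8%). In cells with at least 24 assays these differences were 2.74 points for Timp1 and -0.22 for Myc. The median of the list was 4.45 points against 5.70 over all assays. By the class rule 6 of the 7 rated genes were higher in collagen-high cells and 0 lower, beside 45 of all 94 assays (47.9%), from 25.8 points for Acta2 and 33.6 for Ccn2 to 86.6 for Timp1. Nog was at -8.73 points, and the list's median was 50.7 points against 15.4 over all assays. The class is defined by a collagen gene, and Col1a2 and Col3a1, each detected in 100% of it, are among the 6. Their calls are no independent support, and the list's median is the value of Col3a1.

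The list was also set against detection of Tgfb3, Tgfbr1 and Eng in cells with at least 24 assays, of which too few lack Tgfb1 for the same comparison. Timp1 was detected in 88.1% of cells with Tgfb3 and 39.6% of those without, in 84% with Eng and 35.6% without, and in 73.5% with Tgfbr1 and 29.6% without. Ccn2 was detected in 45.2% of cells with Tgfb3 and 20.8% without, and Acta2 in 42.9% and 15.1%. Nog went the other way, at 11.9% of cells with Tgfb3 and 26.4% without. Most cells with Tgfb3 were collagen-high.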

How the data were processed

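The authors deposited 1 table, with assays in rows and cells in columns. Its unit is not named: the values were read as raw Ct because they run from 4.49 to 40, with 12852 of 18432 at exactly 40, and the table is described as not normalized. Per the labels, cells were sorted as lin- and GFP+, and genotype and cell number come from the labels. The sources used here do not give the threshold software or the preamplification. Panel names matched RefSeq (GRCm38.p6) symbols in 88 and synonyms in 5 of 96 cases, and 3 were kept as written.

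A reaction counted as detected below Ct 40, and cells with at least 10 assays were kept. Shares carry exact Clopper-Pearson intervals, and differences carry Newcombe-type intervals joined from them. Levels are medians over detecting cells, with the SD over cells. The members, lists, size rules and alternatives were chosen with earlier results of these data known. Named genes were the 4 members, the 3 assays most like each by phi and by rho (at least 20 co-detecting cells), the pathway list and class markers. Alternatives covered Ct limits of 30 and 25, Col1a1 limits of 14 and 18, the filter on cells, each set, and subtraction of the cell's median Ct. 2 more, without Cdh5-detecting cells and in collagen-high cells alone, were chosen after the data had been seen. Some of the computations were tested on simulated cells with known shares, and the others were not tested in this way. Tools were Python 3.11.15, NumPy 2.4.6, pandas 2.3.3, SciPy 1.17.1 and Matplotlib 3.10.9. The number of cells limits the precision, and no column of values was left unused.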

Additional observations from a re-analysis of the deposited data

Results flagged for a closer look

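The share of cells with Tgfb3 differed between EKO and WT in opposite directions in the 2 sets, at -10.3 points in set A and 23.1 points in set B. The difference between the sets was not tested. The share of collagen-high cells was lower in EKO in set A (17.9% against 33.3%) and higher in set B (36.8% against 20%).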

How the results depend on the processing

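Of 206 recomputed values, 190 moved by less than the spread of the main value and 16 moved further. That spread is the interval for shares and the SD over cells for Ct, so values within it could change sign. Of 10 alternatives each, the genotype difference in share kept its sign in 6 for Tgfb1, Tgfb3 and Tgfbr1 and 7 for Eng. No called value changed sign, but a call already required the same sign in both sets. Genotype shares, class differences in Ct and co-detection held no called value. For the genotype difference in share, Tgfb3 moved to -10.4 points with at least 24 assays, -10.3 in set A, 23.1 in set B and -8.57 in collagen-high cells, and Tgfbr1 to -8.27 with at least 24 assays and -11.0 in collagen-high cells. For the class difference, Tgfb1 moved to -6.52 points with at least 24 assays, Tgfb3 to 81.8 in set A and Tgfbr1 to 67.2 in set B, and the Tgfbr1 median Ct difference moved from -1.70 to 0.076 cycles after subtraction of the cell median. In cells with at least 24 assays, of which 3 lack Tgfb1, the co-detection difference (share with the first gene minus share without it) moved to 11.2 points for Tgfb3 by Tgfb1, 5.07 for Tgfbr1 by Tgfb1, -14.5 for Eng by Tgfb1, 21.1 for Tgfbr1 by Tgfb3, 29.4 for Eng by Tgfb3 and 11.4 for Eng by Tgfbr1. The cause was not tested. Genotype differences in Ct moved from their main values by less than the spread over cells under all 40 alternatives, and kept their sign except for Tgfb3, at 0.46 cycles in set A and 0.001 after subtraction of the cell median. Weighting the genotypes to the same bins of yield gave share differences of -7.73 points for Tgfb1, -3.30 for Tgfb3, -5.67 for Tgfbr1 and -5.66 for Eng. The class difference of the Eng Ct was -1.95 cycles by medians and 0.21 by means. Of the 13 Ptprc-detecting cells without high collagen with Eng, 8 detected Ptprc alone, at a Ct of 22.6 to 23.98. The others also detected Cdh5, at 15.996 to 22.7, and their part in this change was not tested. The number of cells, 1 sample per genotype and the confounding of genotype with position limit every comparison. No paired analysis was possible because the labels give the genotypes no shared replicate numbers and the results come from no test.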

Other observations

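The 3 cells with at least 24 assays and no Tgfb1 were the exception among 95. In 97.7% of the kept cells with Tgfb3 and 92.3% of those with Eng, Tgfb1 was detected too. Among the 95 cells Tgfb1 was as common without these genes. It was detected in 97.6% with Tgfb3 and 96.2% without, and in 96% with Eng and 97.8% without. The receptor without either ligand was detected in 6 kept cells, 4 of them Ptprc-detecting cells without high collagen, and Tgfb1 without the receptor in 53, of which 35 were Ptprc-detecting cells without high collagen and 5 collagen-high cells.

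Eng was least like Cd48, a leukocyte gene, with a phi coefficient of -0.41 over the 95 cells, Tgfb3 least like Kit (-0.33) and Tgfbr1 least like Ptprc (-0.24). All 4 genes were detected in 12 of 93 WT cells (12.9%) and 12 of 77 EKO cells (15.6%).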
